A study of Mus musculus with 12 samples.

Results

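Complement transcripts were examined in the mouse cortex through 8 genes, picked by symbol from the table of raw counts: C1qa, C1qb and C1qc, which encode the chains of C1q, the components C4b and C3, and the receptors C3ar1, C5ar1 and Itgam. They are 8 of the 24062 gene symbols in the table, and all 8 were among the 15440 genes that passed the filter on low counts. The study asked how tauopathy and the loss of 1 Tia1 allele alter RNA in the brain. Cortex RNA was taken from mice at 9 months of age, with 1 library per mouse and 3 libraries in each of 4 groups. PS19 mice carried a human MAPT transgene with the P301S change, driven by the Prnp promoter, and had both Tia1 alleles. P301S Tia1+/- mice carried the same transgene and 1 inactivated Tia1 allele, Tia1+/- mice carried that allele without the transgene, and WT mice had neither. The transgenic line came from a mixed B6 and C3 background and the Tia1 line from C57BL/6J, and the study's breeding scheme used littermates of crosses between first-generation animals. Transgenic mice with end-stage or neuromuscular signs had been left out by the study, so PS19 here means mice before that stage.

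Complement is a cascade of serum and tissue proteins that marks targets for removal. C1q binds a target and starts the classical pathway, C4 and then C3 are cleaved and attach to it, and phagocytes recognise the attached fragments or are drawn by the small fragments that are released. In the brain C1q is made mostly by microglia, C4 and C3 can be made by glia, and the CR3 receptor on microglia, whose alpha chain is Itgam, has been linked to the removal of synapses.

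The counts summed to between 11978962 and 19146484 per library. Values are given as CPM, counts scaled to a common library size, and as log2 fold changes with adjusted p values from edgeR's quasi-likelihood test, with 0.05 as the threshold. Tia1 lay between 61.4 and 79.8 CPM in Tia1+/-, 72.6 and 77.8 CPM in P301S Tia1+/-, 70.8 and 77.9 CPM in PS19 and 75.4 and 93.8 CPM in WT libraries, so its count did not separate the genotypes, and the sources used here do not say whether RNA of the inactivated allele would be counted. Mapt was 438.9 to 461.8 CPM in PS19, 336.0 to 357.1 CPM in P301S Tia1+/-, 344.4 to 501.7 CPM in Tia1+/- and 255.7 to 413.3 CPM in WT libraries. Prnp, whose promoter drives the transgene, was 2018 to 2158 CPM in PS19 libraries, above all others, but 1404 to 1535 CPM in P301S Tia1+/- libraries, inside the WT range of 1334 to 1879 CPM and the Tia1+/- range of 996 to 1922 CPM. These genes did not set both transgenic groups apart. Libraries were grouped by title. For the 2 groups with 1 Tia1 allele the separate genotype labels are exchanged relative to the titles, so a sentence on one of these groups would apply to the other if the entries were right. Xist had 3304 to 5693 counts in every Tia1+/- and P301S Tia1+/- library and 0 to 13 in every WT and PS19 library. Ddx3y, on the Y chromosome, had 0 to 2 counts in every Tia1+/- and P301S Tia1+/- library and 1605 to 2296 in every WT and PS19 library. This was so although the methods give males as the default, and sex-linked expression and the Tia1 genotype cannot be told apart here. The summed level of 8 olfactory bulb markers was 1023 CPM in WT replicate 1 and 633.9 to 779.8 CPM in P301S Tia1+/- libraries, against 5.92 to 14.6 CPM in PS19 libraries. Tia1+/- replicate 3 had 1839 CPM of striatum markers, against 129.6 to 336.8 CPM in the other libraries.

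None of the 8 genes passed the threshold in edgeR in any of the 7 comparisons made. What the libraries showed instead was a single PS19 library, replicate 1, with C1qa at 2.06, C1qb at 1.62, C1qc at 1.67, C4b at 1.74 and C3ar1 at 1.999 times the highest of the other 11 libraries. C3, C5ar1 and Itgam were not highest in that library. The means of the PS19 group for C1q, C4b and C3ar1 therefore rested largely on it. Without it the PS19 means were 51.9 CPM for C1qa, 33.97 CPM for C1qb, 33.8 CPM for C1qc, 22.99 CPM for C4b and 3.51 CPM for C3ar1. The plot of the members in the 12 libraries shows both sides of this.

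**Figure D1:**
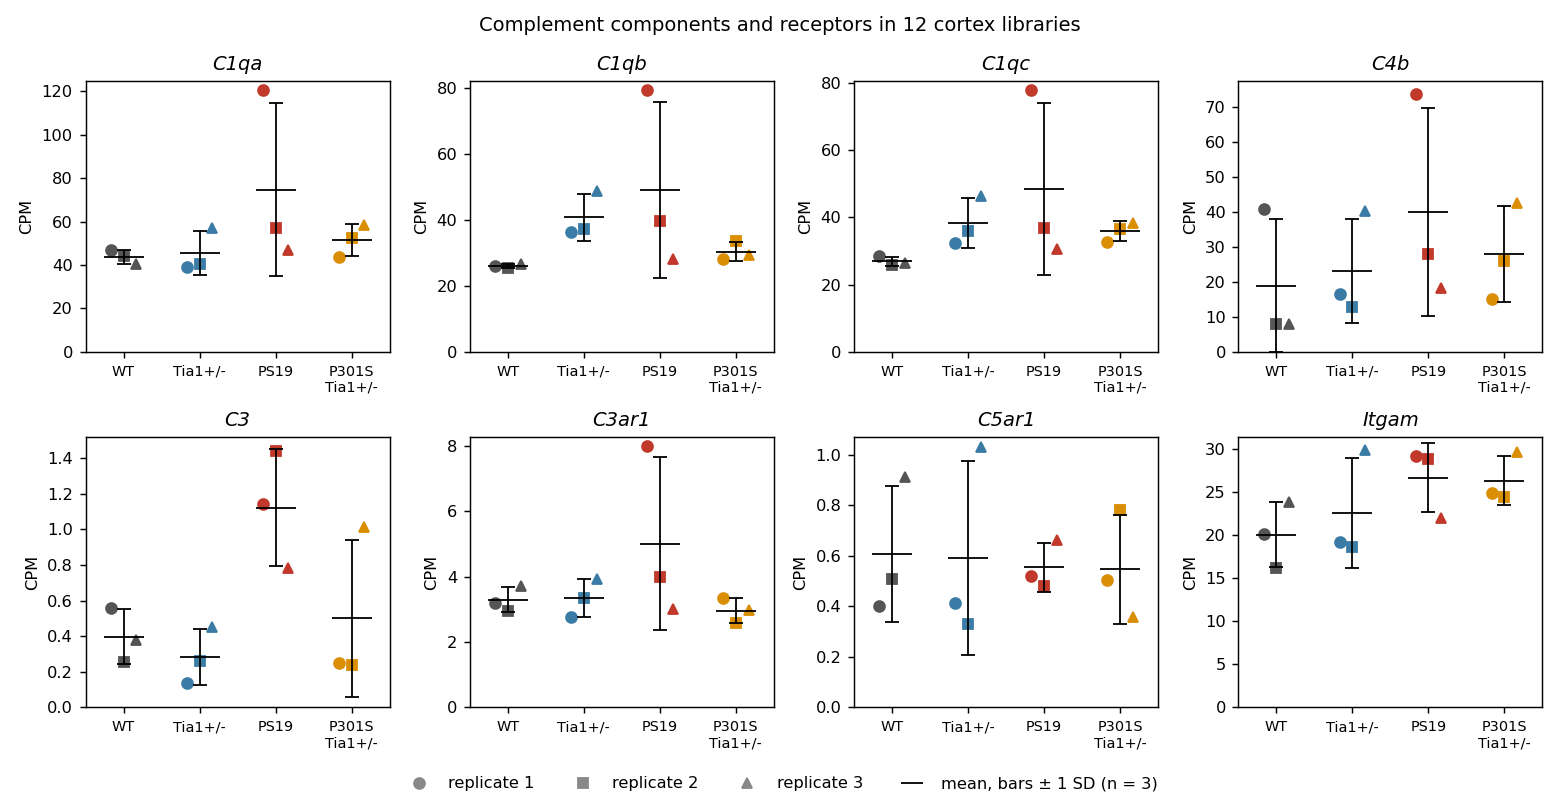
CPM of the 8 genes (y axes, each from 0) in the 12 cortex libraries, grouped by genotype on the x axes; symbols mark replicates, horizontal lines group means and bars 1 SD (n = 3). PS19 replicate 1 stands at 120.5 CPM of C1qa, 79.3 of C1qb, 77.8 of C1qc, 73.6 of C4b and 8.002 of C3ar1, above every other library, and C3 lies between 0.783 and 1.44 CPM in PS19 libraries.

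The C1q chains are assembled from 3 genes that lie next to each other on mouse chromosome 4 (GRCm38, GENCODE M21), all on the minus strand. C1qb occupies chr4:136880129-136886187, C1qc chr4:136889804-136893065 and C1qa chr4:136895917-136898803, with 3616 and 2851 bases between them and 18675 bases from end to end. No stretch of 100 bases of one chain's exons recurred in another, and no other annotated exon overlaps theirs. The stretches upstream of the start are shown for C1qb and C1qc, the chains for which one was available, and for Itgam, which is read from the same kind of cell. They are from RefSeq (GRCm38.p6), 5′ to 3′ on the strand of the gene, with GAGGAA or its reverse complement TTCCTC in capitals, the core that PU.1, the myeloid lineage transcription factor, is known to bind. The stretches run over chr4:136886201-136886450 for C1qb, chr4:136893066-136893164 for C1qc and chr7:128062390-128062639 for Itgam, the latter on the plus strand.

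C1qb: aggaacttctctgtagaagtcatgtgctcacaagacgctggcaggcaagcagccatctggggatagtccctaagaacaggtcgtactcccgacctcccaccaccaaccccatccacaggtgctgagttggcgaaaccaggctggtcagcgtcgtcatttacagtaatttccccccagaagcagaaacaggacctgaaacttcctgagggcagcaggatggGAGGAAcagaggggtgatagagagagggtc
C1qc: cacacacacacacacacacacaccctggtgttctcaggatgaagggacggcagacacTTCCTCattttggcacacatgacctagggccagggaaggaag
Itgam: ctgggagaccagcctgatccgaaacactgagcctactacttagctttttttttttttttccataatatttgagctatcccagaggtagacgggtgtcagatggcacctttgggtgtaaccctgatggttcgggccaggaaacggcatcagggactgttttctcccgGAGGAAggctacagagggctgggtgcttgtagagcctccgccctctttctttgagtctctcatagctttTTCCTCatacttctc

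In windows of 250 bases before the RefSeq start, the letters occurred 1 time in C1qb, 1 time in C1qc and 2 times in Itgam, and not in C3, C3ar1 or C5ar1. They occurred in 23.3% of 32851 such windows over all genes, and their presence here is a description of the sequence. For C1qa and C4b no such window was available, so neither was searched.

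C1qa, the A chain, had 47.1, 44.0 and 40.4 CPM in the 3 WT libraries and 120.5, 57.1 and 46.8 CPM in the PS19 libraries. It had 38.9, 40.4 and 57.0 CPM in Tia1+/- and 43.8, 52.2 and 58.5 CPM in P301S Tia1+/- libraries. The lowest PS19 library was thus under the highest WT library, and apart from PS19 replicate 1 all values lay between 38.9 and 58.5 CPM. The group means were 43.8 ± 3.35 CPM in WT and 74.8 ± 39.95 CPM in PS19 (SD, n = 3). The log2 fold change of PS19 against WT was 0.77 ± 0.300 (SE, adjusted p = 0.250), and 0.25 without PS19 replicate 1 (adjusted p = 0.589).

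C1qb, the B chain, had 25.9, 25.4 and 26.7 CPM in WT libraries, a narrower spread than in any other group. It had 79.3, 39.6 and 28.3 CPM in PS19 and 36.3, 37.1 and 48.9 CPM in Tia1+/- libraries, all above the 3 WT libraries. P301S Tia1+/- libraries had 28.2, 33.6 and 29.4 CPM, also above WT and below all Tia1+/- libraries. Against WT, the log2 fold change was 0.92 ± 0.298 in PS19 (adjusted p = 0.199) and 0.65 ± 0.298 in Tia1+/- (adjusted p = 0.264). Without PS19 replicate 1 the first value was 0.39 (adjusted p = 0.438), while the second stayed at 0.65 (adjusted p = 0.0949). The difference between the tau effect with 1 and with 2 Tia1 alleles, the interaction, was −1.34 ± 0.419 on the log2 scale (adjusted p = 0.109) and −0.84 without PS19 replicate 1 (adjusted p = 0.147). DESeq2's Wald test on the same 12 libraries put this interaction past the threshold (adjusted p = 0.0299).

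C1qc, the C chain, followed C1qb. Its WT libraries had 28.6, 25.8 and 26.3 CPM, its PS19 libraries 77.8, 36.8 and 30.7 CPM, its Tia1+/- libraries 32.3, 35.9 and 46.5 CPM and its P301S Tia1+/- libraries 32.7, 36.6 and 38.5 CPM. All 9 libraries of the other groups were above the 3 WT libraries. The log2 fold change of PS19 against WT was 0.85 ± 0.288 (adjusted p = 0.213), and 0.33 without PS19 replicate 1 (adjusted p = 0.456). Tia1+/- against WT gave 0.51 ± 0.288 (adjusted p = 0.360). In P301S Tia1+/- against PS19 it was −0.43 ± 0.284 (adjusted p = 0.416), and the value turned to 0.065 without PS19 replicate 1 (adjusted p = 0.850).

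In the same comparison of the transgenic groups, C1qa had a log2 fold change of −0.54 ± 0.298 (adjusted p = 0.343) and C1qb of −0.69 ± 0.294 (adjusted p = 0.233). Without PS19 replicate 1 these values were −0.037 (adjusted p = 0.931) and −0.18 (adjusted p = 0.594). The plot of fold changes shows how far that library moved the C1q chains, C4b and C3ar1 and how little it moved C3 and Itgam.

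**Figure D2:**
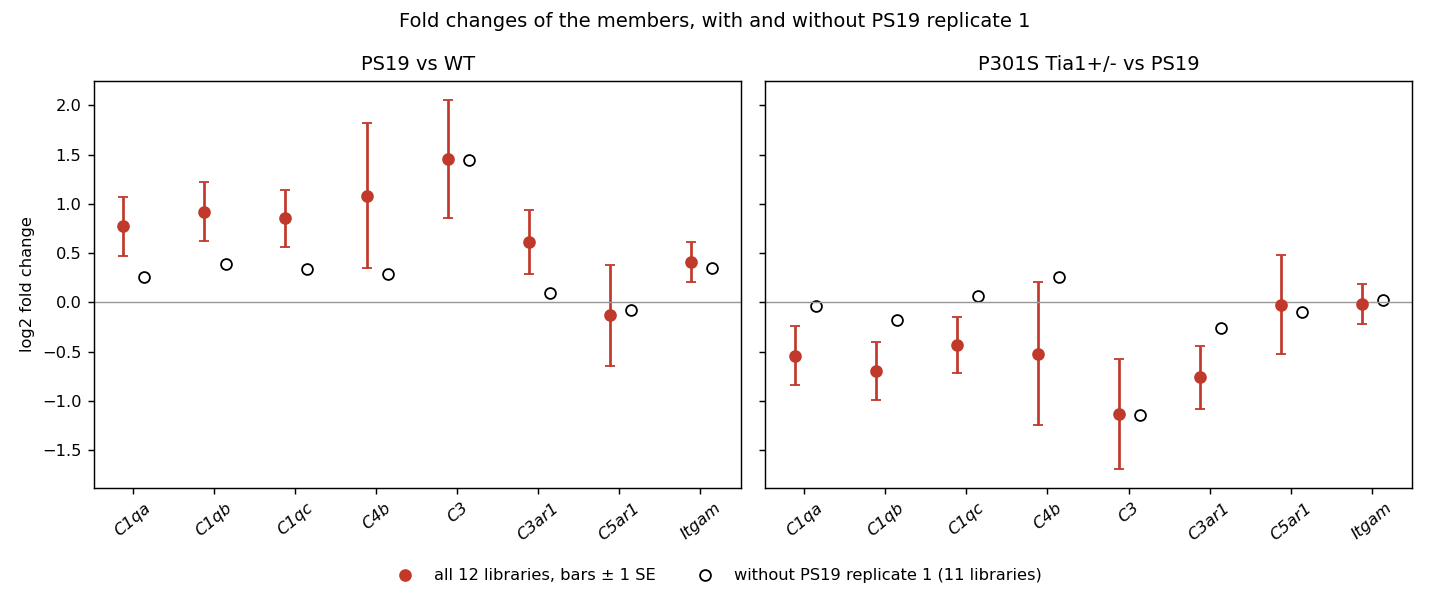
Log2 fold changes (y axis) of the 8 genes in PS19 against WT and in P301S Tia1+/- against PS19; filled points with bars of 1 SE are the fit of 12 libraries and open points the fit without PS19 replicate 1. In PS19 against WT, C1qa went from 0.77 to 0.25, C4b from 1.08 to 0.29 and C3ar1 from 0.61 to 0.091 when that library was left out, while C3 went from 1.46 to 1.45.

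Because C1q holds its chains in fixed proportion, the ratios of the counts of the 3 transcripts were compared within each library, where library size cancels. C1qa was counted 1.82, 1.73 and 1.51 times as often as C1qb in WT libraries, 1.52, 1.44 and 1.65 times in PS19 libraries and 1.55, 1.55 and 1.99 times in P301S Tia1+/- libraries. In Tia1+/- libraries the ratio was 1.07, 1.09 and 1.17, below all 9 other libraries. PS19 replicate 1, with the most C1q, had a ratio of 1.52, inside the range of the others. The log2 difference of Tia1+/- from WT was −0.60. With 3 libraries a side, an exact permutation test cannot go below 0.10, and it gave p = 0.1 (two-sided), or 0.164 adjusted over the 18 ratio tests made. The ratio of C1qa to C1qc was also lowest in Tia1+/-, at 1.21, 1.12 and 1.23 against 1.34 to 1.71 elsewhere, a log2 difference from WT of −0.46 (exact permutation p = 0.1, adjusted p = 0.164). The ratio of C1qb to C1qc ran from 0.765 to 1.12 over the 12 libraries, and it also did not overlap between Tia1+/- and WT (log2 difference 0.14), P301S Tia1+/- and Tia1+/- (−0.34) and P301S Tia1+/- and PS19 (−0.25), each with an exact permutation p of 0.1 and an adjusted p of 0.164. In all, 11 of the 18 comparisons of ratios were without overlap. They are not separate results, since each ratio follows from the others and the comparisons share groups. The share without overlap was not computed for ratios of other genes. For the levels of single genes it was 12.4% to 38.5%, depending on the pair of groups. Levels and ratios within a library are unlike measures, so these shares are no background for the 11 of 18.

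**Figure D3:**
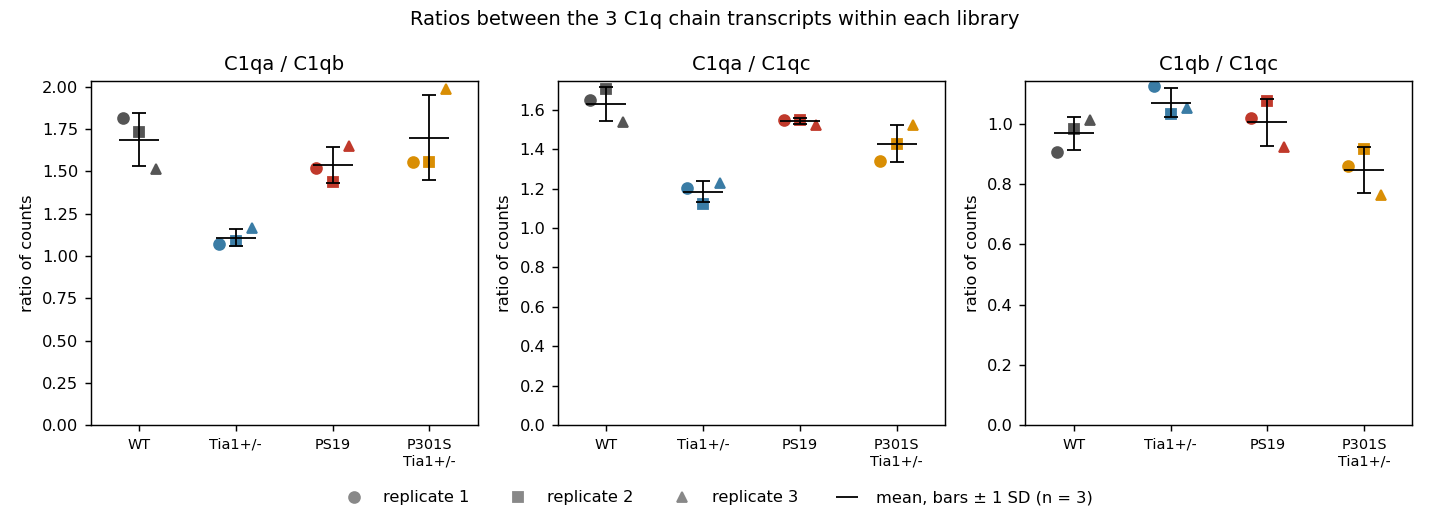
Ratios of counts between C1q chain transcripts (y axes) within each of the 12 libraries, by genotype (x axes); lines are group means and bars 1 SD (n = 3). The C1qa to C1qb ratio averaged 1.11 ± 0.0501 in Tia1+/- libraries against 1.69 ± 0.156 in WT, 1.54 ± 0.107 in PS19 and 1.70 ± 0.250 in P301S Tia1+/- libraries.

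C1q was read beside the markers of the cells that make it. The summed level of 8 microglia markers, among them Csf1r, Cx3cr1, P2ry12, Tmem119, Trem2, Siglech and Gpr34, was 262.7 to 288.8 CPM in WT, 276.2 to 393.0 CPM in Tia1+/-, 328.4 to 478.2 CPM in PS19 and 341.3 to 344.6 CPM in P301S Tia1+/- libraries, and PS19 replicate 1 was highest. All 8 markers were above 0 in every library. In PS19 against WT all 8 had positive log2 fold changes, with a median of 0.47, and none passed the threshold. All 8 were also positive in Tia1+/- and in P301S Tia1+/- against WT, with medians of 0.21 and 0.31. The 3 C1q chains summed to 0.581 of the microglia markers in PS19 replicate 1 and to between 0.307 and 0.392 of them in the other 11 libraries. The level of C1q in that library was thus high also for its microglia markers. In bulk tissue, more microglia and more RNA per microglia cannot be told apart.

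Over the 12 libraries, the genes whose log2 CPM followed the mean of the C1q chains most closely were Lair1 (r = 0.968), Ctsz (0.957), Tyrobp (0.947), Fcer1g (0.946) and Rac2 (0.935). Tyrobp and Fcer1g are adaptors that signal for myeloid receptors, Lair1 is an inhibitory receptor that binds C1q and collagen, Ctsz is a lysosomal cathepsin and Rac2 a GTPase of blood cells. Without PS19 replicate 1 the 5 correlations were between 0.805 and 0.930 over 11 libraries. Among the chains, C1qb and C1qc had r = 0.946 (0.844 without that library), C1qa and C1qc 0.905 (0.662 without it), and C1qa and C1qb 0.809 (0.372 without it). The points share library composition, and the values are descriptions.

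**Figure D4:**
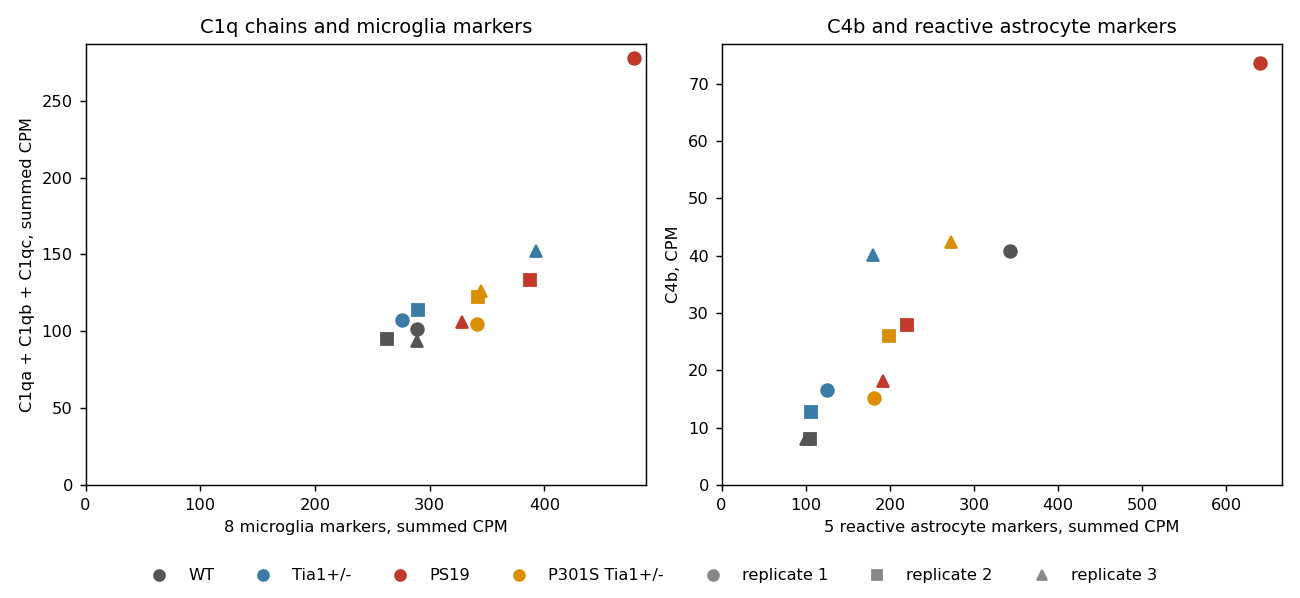
Left, the summed CPM of C1qa, C1qb and C1qc (y axis) against the summed CPM of 8 microglia markers (x axis); right, the CPM of C4b (y axis) against the summed CPM of 5 reactive astrocyte markers (x axis); colours are genotypes and symbols replicates of the 12 libraries. PS19 replicate 1 is highest on all 4 axes, with 277.7 CPM of C1q beside 478.2 CPM of microglia markers and 73.6 CPM of C4b beside 639.6 CPM of reactive astrocyte markers.

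C4b encodes the classical pathway C4 of the mouse and lies on chromosome 17 (chr17:34728380-34743882, minus strand). Its neighbour C4a is a close copy: 16.5% of all windows of 100 bases in the exons of C4b recur in C4a, so reads may have been shared and the level of C4b is uncertain to that extent. C4b had a wide spread within every group. WT libraries had 40.7, 7.95 and 7.985 CPM, Tia1+/- libraries 16.5, 12.7 and 40.1 CPM, PS19 libraries 73.6, 27.9 and 18.1 CPM and P301S Tia1+/- libraries 15.2, 26.0 and 42.4 CPM. All 4 groups overlapped, with 1 library in each of WT, Tia1+/- and P301S Tia1+/- between 40.1 and 42.4 CPM. The log2 fold change of C4b in PS19 against WT was 1.08 ± 0.738 (adjusted p = 0.482). It was 0.29 when PS19 replicate 1 was left out (adjusted p = 0.888) and 2.34 when WT replicate 1 was left out. In P301S Tia1+/- against PS19 it was −0.52 ± 0.722 (adjusted p = 0.709), or 0.25 without PS19 replicate 1.

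The 5 reactive astrocyte markers (Gfap, Vim, Serpina3n, Lcn2 and Cd44) summed to 342.9 CPM in WT replicate 1 and 639.6 CPM in PS19 replicate 1, against 100.8 to 272.3 CPM in the other 10 libraries. The 5 meningeal fibroblast markers summed to 127.3 CPM in WT replicate 1 and 189.2 CPM in P301S Tia1+/- replicate 3, against 16.0 to 72.9 CPM elsewhere, with 47.8 CPM in PS19 replicate 1, which had the most C4b. The part of these cells in the spread of C4b was not tested. When the fit took the bulb markers as a covariate, C4b passed the threshold in PS19 against WT (log2 fold change 3.73, adjusted p = 0.0292) and in P301S Tia1+/- against PS19 (−3.72, adjusted p = 0.0465), in fits that called 1151 and 1272 genes. The covariate, a mean log2 CPM, was −1.13 to −0.174 in PS19, 1.76 to 6.46 in WT and 5.60 to 6.05 in P301S Tia1+/- libraries. PS19 overlapped neither group, so these fits cannot separate the bulb level from the genotype. C4a, given for comparison, had 5.60, 2.37 and 2.89 CPM in WT and 7.28, 4.40 and 3.25 CPM in PS19 libraries. Among the genes closest to C4b over the 12 libraries were Usp18 (r = 0.960), Lgals3bp (0.936), Tlr2 (0.931) and Bin2 (0.929), of which Usp18 belongs to the interferon response and Tlr2 is a receptor for microbial products.

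C3, the component on which the pathways of complement converge, was near the floor of these libraries. It lies at chr17:57203970-57228136 on the minus strand. It had 7, 3 and 5 counts in WT libraries, 2, 4 and 7 counts in Tia1+/- libraries, 22, 18 and 13 counts in PS19 libraries and 4, 4 and 17 counts in P301S Tia1+/- libraries, so every PS19 library was above every WT and every Tia1+/- library. The PS19 libraries had 1.14, 1.44 and 0.783 CPM, and the WT libraries 0.560, 0.254 and 0.380 CPM. For PS19 against WT the log2 fold change was 1.46 ± 0.599 (adjusted p = 0.270), and it was 1.45 without PS19 replicate 1 (adjusted p = 0.458). In P301S Tia1+/- against PS19 it was −1.13 ± 0.561 (adjusted p = 0.294). C3 met the filter of 0.659 CPM in the 3 PS19 libraries and in 1 other, so it was tested only because it was higher there, and its direction is no independent result. The genes closest to it over the 12 libraries were Was (r = 0.879), Ccdc81 (0.874), Lilrb4 (0.863), Tifab (0.856) and C4a (0.846). At 2 to 22 counts the values carry large counting error.

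C3ar1, the receptor for the C3a fragment, lies at chr6:122847138-122856161 on the minus strand. It had 3.20, 2.96 and 3.73 CPM in WT, 2.76, 3.35 and 3.93 CPM in Tia1+/-, 8.002, 4.003 and 3.01 CPM in PS19 and 3.33, 2.58 and 2.97 CPM in P301S Tia1+/- libraries. Outside PS19 replicate 1 all 11 libraries were between 2.58 and 4.003 CPM. The log2 fold change was 0.61 ± 0.325 in PS19 against WT (adjusted p = 0.373) and 0.091 without that library (adjusted p = 0.895). It was −0.76 ± 0.323 in P301S Tia1+/- against PS19 (adjusted p = 0.232) and −0.26 without it (adjusted p = 0.596). Its closest gene, Itgb2, the beta chain shared by CR3 and CR4, had r = 0.923 over 12 libraries and 0.593 over the 11 without PS19 replicate 1. Cst7 (0.910), Ctss (0.903), Lair1 (0.850) and Myo1f (0.834) came next, and Ctss and Cst7 encode a lysosomal protease and an inhibitor of such proteases. Without that library none of the 5 was above 0.623.

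C5ar1, the receptor for the C5a fragment (chr7:16246743-16259540, minus strand), was barely counted. It had 5, 6 and 12 counts in WT libraries, 6, 5 and 16 counts in Tia1+/- libraries, 10, 6 and 11 counts in PS19 libraries and 8, 13 and 6 counts in P301S Tia1+/- libraries. The groups overlapped throughout. PS19 against WT gave a log2 fold change of −0.13 ± 0.513 (adjusted p = 0.918). P301S Tia1+/- against PS19 gave −0.025 ± 0.502 (adjusted p = 0.984), and Tia1+/- against WT −0.039 ± 0.512 (adjusted p = 0.977). At 5 to 16 counts a library, no difference was detectable. The genes closest to it were Ccdc93 (r = 0.812), B3gnt2 (0.793), Nat8 (0.790), Ept1 (0.783) and Bzw2 (0.777).

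Itgam, the alpha chain of CR3 and a receptor for fragments of attached C3, lies at chr7:128062640-128118491 on the plus strand. In the annotation, 3450 bases of its exons are shared with another locus, Gm49368, which is not a symbol of the count table. Itgam had 20.2, 16.2 and 23.8 CPM in WT, 19.2, 18.6 and 29.9 CPM in Tia1+/-, 29.2, 28.8 and 22.04 CPM in PS19 and 24.9, 24.5 and 29.6 CPM in P301S Tia1+/- libraries. Every P301S Tia1+/- library was above every WT library, and PS19 overlapped WT. For PS19 against WT its log2 fold change was 0.41 ± 0.204 (adjusted p = 0.342), and 0.34 without PS19 replicate 1 (adjusted p = 0.574). Between the transgenic groups it was −0.019 ± 0.202 (adjusted p = 0.971). Itgam thus did not stand out in PS19 replicate 1, where C1q and C3ar1 did. The genes closest to it were Npffr1 (r = 0.916), Csf1r (0.898), E230029C05Rik (0.891), 4632428N05Rik (0.880) and Nckap1l (0.876), of which Csf1r is the receptor that microglia need to survive.

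Per kilobase of exon, C1qa had the highest mean over the 12 libraries (51.8 CPM per kb), followed by C1qb (33.6), C1qc (19.4), C4b (4.82), Itgam (4.76), C3ar1 (0.849), C5ar1 (0.224) and C3 (0.112). The mRNAs of the recognition molecule were thus counted far above those of C3 and of the fragment receptors in this tissue. C4b and Itgam did not differ beyond their spread, with 3.32 ± 3.32 and 3.99 ± 0.753 CPM per kb in WT (SD, n = 3). Nor did C5ar1 and C3 in PS19, the group through which C3 passed the filter, with 0.216 ± 0.0373 and 0.218 ± 0.0641 CPM per kb. In WT they had 0.236 ± 0.105 and 0.0774 ± 0.03 CPM per kb, and every C5ar1 value was above every C3 value. Both genes had few counts. C1qa and C1qb were apart in WT, at 42.1 ± 3.22 and 23.9 ± 0.607 CPM per kb, and close in Tia1+/-, at 43.7 ± 9.67 and 37.5 ± 6.48 CPM per kb.

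Counted over the 8 genes, PS19 against WT gave 7 positive log2 fold changes and 1 negative, with a median of 0.81 beside −0.0066 over all 15440 genes. The median was 0.31 without PS19 replicate 1, with the same split of signs. Leaving aside C3, which passed the filter through its PS19 libraries, there were 6 positive values and 1 negative. Their median was 0.77, or 0.29 without PS19 replicate 1. None of the 8 passed the threshold, as for all genes (0.0% called). Again without C3, 3 of 7 were at an unadjusted p under 0.05, C1qa, C1qb and C1qc, where 16.3% of all genes were past it. Without PS19 replicate 1 there was 1, C1qb. DESeq2's Wald test called none of the 8 (2.08% of the 20738 genes it gave a p value). The PS19 and WT libraries did not overlap for C1qb and C1qc, 2 of these 7, beside 20.8% of all genes.

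P301S Tia1+/- against PS19 gave 8 negative log2 fold changes, with a median of −0.53 beside 0.0097 over all genes. Leaving aside C3, which passed the filter through its PS19 libraries, 7 were negative, with a median of −0.52. When PS19 replicate 1 was left out, 5 of the 8 values were negative and 3 positive (C1qc, C4b and Itgam). Their median was then −0.07 (−0.037 without C3) beside −0.0029 over all genes. None was called (0.24% of all genes), and C1qb and C3ar1 were past an unadjusted p of 0.05, as were 19.3% of all genes, while without PS19 replicate 1 no member was. DESeq2 called none (3.96% of all genes). No member was free of overlap between these groups, although 38.5% of all genes were. This comparison and PS19 against WT share the 3 PS19 libraries, so their opposite signs are not separate evidence.

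Tia1+/- against WT gave 6 positive and 2 negative values, with a median of 0.11 beside 0.0057 over all genes. None was called (0.712% of all genes), none was past an unadjusted p of 0.05 (19.1% of all genes), and DESeq2 called none (4.69% of all genes). C1qb and C1qc did not overlap between these groups, beside 20.0% of all genes. Among the C1q chains, the log2 fold changes were 0.65 for C1qb, 0.51 for C1qc and 0.053 ± 0.301 for C1qa (adjusted p = 0.943). The exact permutation tests of their ratios gave no adjusted p under 0.164. With 3 libraries a side such a test cannot go below 0.10, so no ratio could have passed the threshold. C4b had 0.29 ± 0.739 (adjusted p = 0.863) and Itgam 0.17 ± 0.205 (adjusted p = 0.692).

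In the other pairs of groups, none of the 8 genes was called by edgeR or by DESeq2. P301S Tia1+/- against WT called 1.31% of all genes, P301S Tia1+/- against Tia1+/- 0.0% and Tia1+/- against PS19 0.0712% with edgeR, and 4.7%, 1.94% and 0.174% with DESeq2. C1qb, C1qc and Itgam did not overlap between P301S Tia1+/- and WT (23.2% of all genes), and C1qb did not overlap between P301S Tia1+/- and Tia1+/- (26.0%). Between Tia1+/- and PS19 no member other than C3 was free of overlap (12.4%).

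The interaction was negative for 7 of the 8 genes, with a median of −0.72 beside 0.0049 over all genes, and none was called (0.00648% of all genes, 1 gene). Leaving aside C3, it was negative for 6 of 7, with a median of −0.785. It was −0.94 ± 0.405 for C1qc (adjusted p = 0.198), −0.59 ± 0.423 for C1qa (adjusted p = 0.416) and −0.78 ± 0.461 for C3ar1 (adjusted p = 0.327). C4b had −0.81 ± 1.03 (adjusted p = 0.658), C3 −0.66 ± 0.906 (adjusted p = 0.684), Itgam −0.19 ± 0.287 (adjusted p = 0.723) and C5ar1 0.014 ± 0.722 (adjusted p = 0.993). Without PS19 replicate 1 the values of C1qa, C1qc, C4b and C3ar1 were −0.095, −0.45, −0.051 and −0.29, and the median of the 8 was −0.22. DESeq2 on the 12 libraries called C1qb and no other member, 1 of 8, beside 5.86% of all genes.

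The rest of the complement system was read from a list of 51 genes, of which 49 were in the table, 2 had no count in any library and 30 were tested. None was called by edgeR in the 7 comparisons of the 12 libraries. DESeq2, which gave a p value for 47 of them, called 2 (Clu and Itgax) in PS19 against WT, 2 (the same genes) in P301S Tia1+/- against PS19, 1 (Susd4) in Tia1+/- against WT and 3 (C7, Clu and Vtn) in the interaction, beside the shares of all genes given above (2.08% to 5.86%). With PS19 replicate 1 left out, DESeq2 called 1, Clu in the interaction, and none in the first 2 of these comparisons or in Tia1+/- against WT. Over all genes it then called 737 of 20652 in the interaction. In edgeR, leaving out WT replicate 1 called Clu, Csmd1 and Vtn in P301S Tia1+/- against PS19, where the number of genes called went from 37 to 1606. Leaving out WT replicate 3 called Susd4 in Tia1+/- against WT and C7 and Clu in the interaction, where all calls went from 110 to 497 and from 1 to 1035. In PS19 against WT by edgeR, 19 of the 30 had positive values and 11 negative, with a median log2 fold change of 0.14. At an unadjusted p under 0.05 there were 5 in PS19 against WT, 6 in P301S Tia1+/- against PS19 and 5 in Tia1+/- against WT, of 30 each, near the shares of all genes (16.3%, 19.3% and 19.1%). By place in the cascade, the PS19 against WT medians were −0.28 for 7 proteases and other classical or lectin genes, −0.38 for 2 alternative pathway genes, 0.77 for 2 terminal components, 0.22 for 13 regulators and 0.0046 for 6 other receptors.

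**Figure D5:**
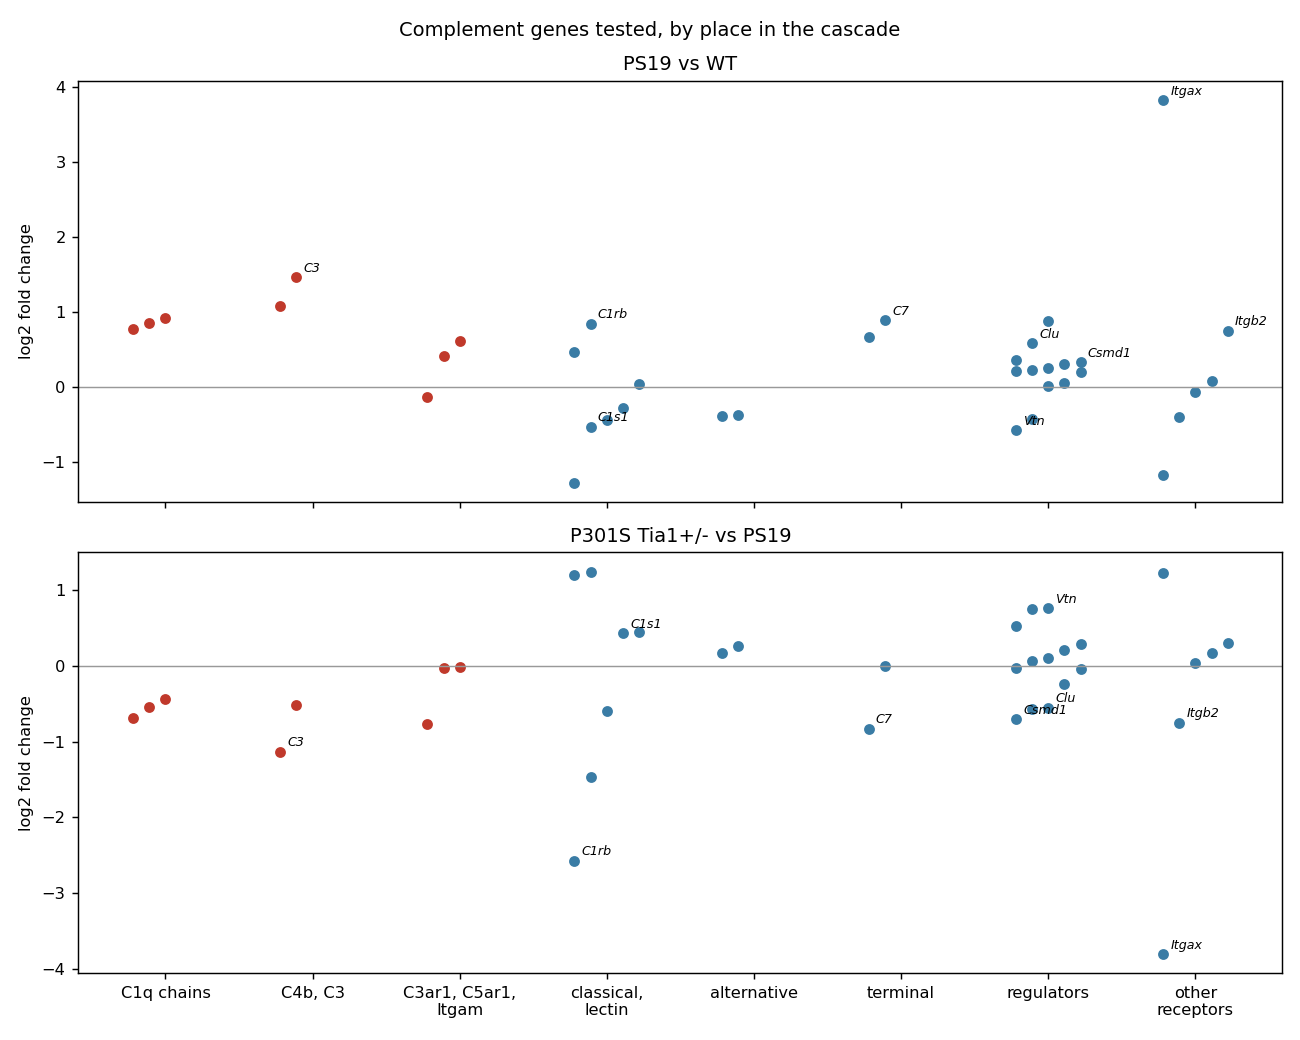
Log2 fold changes (y axis) in PS19 against WT and in P301S Tia1+/- against PS19, with genes ordered by place in the cascade (x axis); red points are the 8 genes of the C1q, C4b, C3 and receptor set and blue points the 30 other complement genes tested. The 3 C1q chains lie at 0.77 to 0.92 in PS19 against WT, beside medians of −0.28 for the classical and lectin genes and 0.22 for the regulators.

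The most abundant of the other genes was Clu, clusterin, a secreted chaperone that also restrains the terminal complex. It had 344.3, 433.2 and 520.7 CPM in WT, 518.5, 529.2 and 489.9 CPM in Tia1+/-, 781.5, 570.8 and 587.3 CPM in PS19 and 438.3, 444.2 and 438.5 CPM in P301S Tia1+/- libraries. Every PS19 library was above every other library. The log2 fold change of PS19 against WT was 0.58 ± 0.151 (adjusted p = 0.165 in edgeR and 0.0251 in DESeq2), and it was 0.43 without PS19 replicate 1, where neither tool called it. P301S Tia1+/- against PS19 gave −0.55 (adjusted p = 0.117, or 0.0175 without WT replicate 1). Csmd1, a membrane inhibitor of the classical pathway, had 95.2, 185.8 and 183.5 CPM in WT, 205.3, 205.0 and 138.4 CPM in Tia1+/-, 194.0, 198.4 and 191.8 CPM in PS19 and 105.0, 133.7 and 120.3 CPM in P301S Tia1+/- libraries. In P301S Tia1+/- against PS19 its log2 fold change was −0.703 (edgeR adjusted p = 0.158), and −0.732 without PS19 replicate 1 (adjusted p = 0.272). Without WT replicate 1, a library outside this comparison, it was −0.705 (adjusted p = 0.013). Its 4 lowest values were in WT replicate 1 and the P301S Tia1+/- libraries, which had the 4 highest olfactory bulb sums, and whether tissue of that region contributed was not tested. Vtn, vitronectin, was highest in the same libraries, at 108.0 CPM in WT replicate 1 and 59.0, 78.2 and 86.7 CPM in P301S Tia1+/-, against 38.7 to 50.3 CPM in the other 8.

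Csmd2, Csmd3, Susd4, Cr1l, Cd59a, Masp1, Cd93 and C1qbp were also among the 12 most abundant, and none of them passed the threshold in the edgeR fit of the 12 libraries. With the bulb covariate, Cd59a and Csmd3 did so in PS19 against WT, P301S Tia1+/- against PS19 and Tia1+/- against WT. Over all 15440 genes these fits called 1151, 1272 and 1623. The PS19 values of the covariate did not overlap those of WT or P301S Tia1+/-. Its Tia1+/- values, −0.907 to 2.67, overlapped the WT values of 1.76 to 6.46 through replicate 3 only. Susd4, an inhibitor of complement activation on membranes, was 61.3 ± 7.01 CPM in WT and 74.9 ± 1.69 CPM in Tia1+/- (SD, n = 3), and it was called in that comparison by DESeq2 and by edgeR without WT replicate 3.

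The integrin partners of Itgam were looked at after their values were seen. Itgb2 had 4.56, 3.21 and 4.34 CPM in WT libraries and 10.9, 5.04 and 4.40 CPM in PS19 libraries (log2 fold change 0.75 ± 0.311, adjusted p = 0.272, and 0.23 without PS19 replicate 1). Itgax, the alpha chain of CR4, had 0.800, 0.169 and 0.228 CPM in WT and 14.5, 2.16 and 0.422 CPM in PS19 libraries, and was at most 0.709 CPM in the libraries with 1 Tia1 allele. Its log2 fold change was 3.82 ± 1.17 (adjusted p = 0.187 in edgeR, 0.027 in DESeq2), and 1.64 without PS19 replicate 1 (adjusted p = 0.506 in edgeR, and not called in DESeq2). Itgb2 and Itgax, unlike Itgam, were thus highest in the library that was highest for C1q.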

How the data were processed

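Cortex total RNA of 12 mice (3 per genotype) was sequenced as stranded total RNA libraries, in pairs, and aligned by the authors to mm10 with TopHat, with featureCounts giving counts per gene. The deposited values are these raw counts, with no normalization by the authors. The annotation, strand and multimapping settings are not given in the sources used here. Submitters' processing notes list TopHat2 2.0.6, and the methods give another version. Every column was used (0 were left out).

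Genes were kept by edgeR's filterByExpr (count minimum 10, total 15, in 3 or more libraries), scaled by TMM and fitted over all 12 libraries by group with edgeR 4.0.16 (quasi-likelihood F test) in R 4.3.3, with Benjamini-Hochberg adjustment over 15440 genes at 0.05. Standard errors are the log2 fold change divided by the root of F. Nothing states that the 3 mice of a group came from separate litters, so p values measure the spread between these mice. Alternatives were DESeq2 1.42.0, other scaling and filters, covariates, the replicate block and leaving out each library. The scripts were tested on simulated data. Count intervals are not given, and totals of 11978962 to 19146484 set the counting error, which is large for C3 and C5ar1. Ratios of C1q chains were compared by exact permutation.

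The members and gene lists were chosen with earlier results of these data known. The genes named are the 8 members, the 12 most abundant other complement genes, any other complement gene past the threshold (there was none), and the 5 genes closest in log2 CPM (Pearson) to the C1q mean and to each other member. Some of the genes this rule takes in are not reported here. Positions are GENCODE M21 (GRCm38), the same assembly as mm10. Symbols were matched directly for 22750 genes and through older symbols for 935.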

Additional observations from a re-analysis of the deposited data

Results flagged for a closer look

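In 3 of the 20 genes looked at, every PS19 library was above every WT library while every P301S Tia1+/- library was below every Tia1+/- library. For C1qb the difference between the tau effects with 1 and with 2 Tia1 alleles was −1.34 on the log2 scale (adjusted p = 0.109 in edgeR, 0.0299 in DESeq2). For Clu it was −0.80 (adjusted p = 0.0821 in edgeR, 0.0124 in DESeq2), and −0.67 without PS19 replicate 1. For Csmd1 it was −0.94 (adjusted p = 0.133 in edgeR, 0.0626 in DESeq2). Opposite effects without overlap were found in 741 of the 15440 genes tested (4.8%), in either direction. The contrast takes in all 4 groups, so it also carries the difference in sex-linked expression between mice with 1 and with 2 Tia1 alleles and the high olfactory bulb markers of WT replicate 1 and the P301S Tia1+/- libraries, whose part was not tested.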

How the results depend on the processing

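Fold changes were recomputed for PS19 against WT, P301S Tia1+/- against PS19, Tia1+/- against WT and the interaction: of 652 alternatives for the 8 genes, 606 kept direction and side of the threshold, 39 changed direction and 7 came past the threshold; of 146 alternatives for the number called, 6 moved. The replicate block called 0 members in every comparison (for C1qb, the interaction had adjusted p = 0.171). Of 18 same-number pairs of libraries, 7 correlated over 0.1 in their deviations from the group means (median −0.0527). Pairs with different numbers were not computed, so these values cannot tell whether replicate numbers pair libraries. With the olfactory bulb covariate 1 member, C4b, was called in PS19 against WT, 1 in P301S Tia1+/- against PS19 and 1 in the interaction (−5.92, adjusted p = 0.0393). Over all 15440 genes these fits called 1151, 1272 and 1509. The PS19 values of this covariate did not overlap those of WT or P301S Tia1+/- libraries, so it cannot be separated from the genotype there. DESeq2's Wald test called 1 in the interaction, C1qb, whose adjusted p ranged from 0.0299 to 0.238 over the alternatives. Without PS19 replicate 1 (chosen after seeing the data) that test called 2, C1qb and C1qc, in Tia1+/- against WT and 1 in the interaction (C1qb). Over all genes it then called 806 of 20652 in Tia1+/- against WT and 737 in the interaction. The cause of these moves was not tested. Over all genes the number called depended on the tool and on the libraries in the fit: 431, 821, 972 and 1216 in these comparisons by DESeq2 against 0, 37, 110 and 1 by edgeR, 0, 7, 9 and 0 with the replicate block and 0, 32, 73 and 5 with no filter. With edgeR, P301S Tia1+/- against PS19 called 1606 genes without WT replicate 1 and 3025 with only its groups fitted, the interaction 1035 without WT replicate 3, and PS19 against WT 1151 with the bulb covariate.

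Small values changed sign. In PS19 against WT, C5ar1 was 0.11 with the bulb covariate. In P301S Tia1+/- against PS19, DESeq2 without PS19 replicate 1 gave C1qc 0.074, C4b 0.26 and Itgam 0.034, and the replicate block gave C5ar1 0.018. In Tia1+/- against WT, GC and length offsets (also added after seeing the data) gave C1qa −0.0025, and the bulb covariate gave C3 0.49 and C5ar1 0.12. In the interaction C5ar1 was −0.00059 with no filter, −0.49 with the bulb covariate, −0.05 with DESeq2 without PS19 replicate 1 and −0.13 with the offsets. Leaving out single libraries, C5ar1 ran from −0.35 to 0.31 in PS19 against WT. In P301S Tia1+/- against PS19, C1qc ran from −0.7 to 0.065, C4b from −0.96 to 0.25, C5ar1 from −0.37 to 0.2 and Itgam from −0.17 to 0.031. In Tia1+/- against WT, C1qa ran from −0.14 to 0.16, C4b from −0.37 to 1.55, C3ar1 from −0.1 to 0.15, C5ar1 from −0.7 to 0.4 and Itgam from −0.083 to 0.32. In the interaction C5ar1 ran from −0.45 to 0.67 and Itgam from −0.36 to 0.062.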

Other observations

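Serping1 and C2 were picked from the other complement genes after their values were seen. Serping1, the inhibitor of the C1 proteases, had 9.37 CPM in WT replicate 1 and 10.53 CPM in P301S Tia1+/- replicate 3, against 0.897 to 5.67 CPM in the other 10 libraries, and C2, the protease of the classical C3 convertase, had 3.76 and 6.07 CPM in these 2 libraries and 0.394 to 3.54 CPM in the others. They were also the libraries with the highest sums of meningeal fibroblast markers, 127.3 and 189.2 CPM. The C1q chains summed to 101.6 and 126.5 CPM in them, inside the range of the other libraries (93.4 to 277.7 CPM). Not every complement gene was high in these 2 libraries. C7 was lowest there, at 0.320 CPM (4 counts) in WT replicate 1 and 0.297 CPM (5 counts) in P301S Tia1+/- replicate 3. The others had 0.508 to 1.58 CPM (6 to 24 counts). At so few counts this order carries large counting error.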
